A study of Caenorhabditis elegans with 12 samples.

Results

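The ugt genes of Caenorhabditis elegans encode UDP-glucuronosyltransferases, and their transcripts were followed in worms in which 1 of 3 subunits of the vacuolar proton pump (V-ATPase) had been knocked down. Of the targets, vha-6 encodes a form of the a subunit found in the intestine, vha-16 the d subunit, and vha-19 an accessory subunit related to mammalian Ac45. Members were taken by name, as every gene called ugt with a number in the deposited table and with at least 10 counts summed over the 12 libraries. All 63 rows so named met the minimum, out of 18467 genes in the table, so no member was lost at that step. The worms were whole animals of the N2 strain, labelled wild type, and none carried a transgene or a mutation per the labels. The 4 groups, of 3 libraries each, were fed control RNAi bacteria or a mixture of 25% bacteria against vha-6, vha-16 or vha-19 with 75% control bacteria. Feeding ran from the L1 larval stage for 2.5 days at 20 °C, up to the L4 or young adult stage, and polyA-enriched RNA was sequenced on a BGISeq500. All 4 groups therefore share strain, stage as labelled, feeding time and temperature, and differ in the bacterial mixture. The labels do not say whether the 3 libraries of a group came from separate cultures, so p-values measure the spread between these samples only, which may be technical.

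UDP-glucuronosyltransferases are membrane enzymes of the endoplasmic reticulum that join a sugar from a UDP-sugar donor to small fat-soluble molecules, which makes them easier to excrete. They act after oxidation by cytochrome P450 enzymes and beside glutathione transferases, and efflux pumps carry the conjugates out of the cell. Mammals use glucuronic acid for bilirubin, steroids and many drugs. In worms the family is large, many members are expressed in the intestine, and for most of them no substrate is established.

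All 63 members were protein-coding genes under their current names in the Ensembl 115 annotation of the WBcel235 genome. Chromosome V held 39 of them, chromosome IV 12, chromosome I 5, chromosome X 4, chromosome III 2 and chromosome II 1. Their coding lengths lay between 1503 and 1794 bases with a median of 1593. Exons of 16 members overlap another annotated gene, piRNA genes included, and only some of these overlaps are named below. Another 2 genes of the table, C23G10.6 and H23N18.4, are now called ugt-66 and ugt-67 and were not counted as members, since the table gives their older names. C23G10.6 stood at 5.84 ± 0.801 CPM in control, 20.4 ± 1.12 on vha-6 RNAi, 21.1 ± 2.98 on vha-16 RNAi and 26.4 ± 5.58 on vha-19 RNAi (SD, n = 3), and H23N18.4 was under 1 CPM in each group.

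Each library held 21981854 to 22553227 counts in genes. Levels are given as CPM, counts relative to a common library size after scaling with TMM (trimmed mean of M-values), and differences as log2 fold changes from a negative binomial model of 17043 genes. A gene was called when its adjusted p in edgeR's quasi-likelihood F-test was under 0.05. The vha-6 transcript stood at 23.4% of its control level on vha-6 RNAi, vha-16 at 61.0% on vha-16 RNAi and vha-19 at 46.3% on vha-19 RNAi, so each target was lowest in its own group. The vha-6 transcript was also at 31.7% of control on vha-16 RNAi and at 28.8% on vha-19 RNAi. The comparisons with control called 89.4% of all genes on vha-6 RNAi, 89.8% on vha-16 RNAi and 89.9% on vha-19 RNAi, with a biological coefficient of variation of 2.99%. A call by itself therefore says little about a gene. Counts of calls are to be read against the share of all genes called higher and lower, which was 47.9% and 41.4% on vha-6 RNAi, 48.0% and 41.9% on vha-16 RNAi, and 47.7% and 42.2% on vha-19 RNAi. Reads aligned to more than 1 place made up 15.1 to 15.4% of a control library and 7.62 to 9.54% of a vha library. The rule for counting them is not given in the sources used here, and members are related copies, so reads can have been lost or shared between members.

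Summed over the 63 members, ugt transcripts were most abundant on vha-6 RNAi and least abundant under the other knockdowns. The sum was 1562, 1590.1 and 1539.9 CPM in the control libraries and 2763, 2704 and 2732 on vha-6 RNAi. It was 992, 1038 and 1026 CPM on vha-16 RNAi and 1026, 1066 and 1043 on vha-19 RNAi. The vha-6 libraries lay above all others and the libraries of the other knockdowns lay below the controls, while vha-16 and vha-19 RNAi overlapped each other. The mean on vha-6 RNAi, 2733 ± 29.5 CPM (SD, n = 3), was 1.75 times the control mean of 1564 ± 25.2. The means on vha-16 and vha-19 RNAi, 1018 ± 23.6 and 1045 ± 19.8 CPM, were 0.651 and 0.668 times the control mean. The ratios depend on the scaling: on library totals without TMM they were 2.38, 0.933 and 0.973 in the order vha-6, vha-16, vha-19. With DESeq2 size factors they were 1.59, 0.570 and 0.593 in the same order. The former are all above the TMM ratios and the latter all below them. In whole worms, fewer cells of a type and less RNA per cell cannot be told apart.

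**Figure D1:**
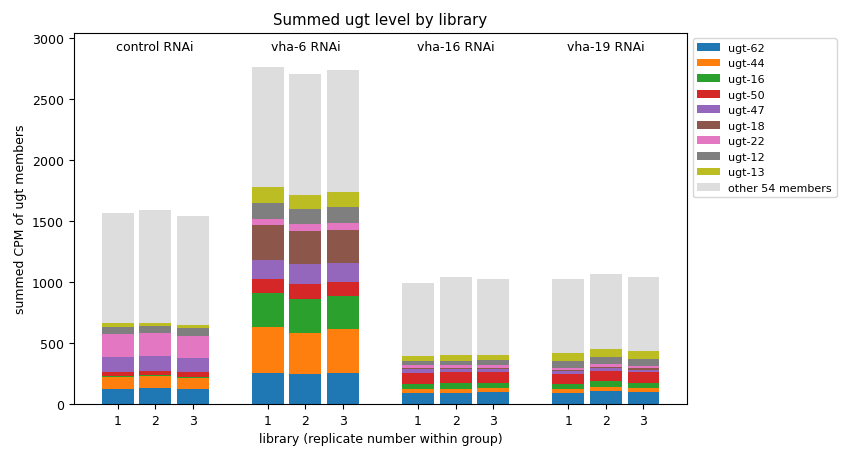
Stacked bars of CPM summed over the ugt members in each of the 12 libraries, by RNAi group. The coloured parts are the 9 members with the highest mean level and the grey part is the other 54. The vha-6 libraries reach about 2733 CPM on average against 1564 in control, with large parts for ugt-44, ugt-16 and ugt-18.

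Much of the vha-6 sum lay in a few members. On vha-6 RNAi ugt-44 made up 13% of the sum, ugt-18 10.1% and ugt-16 9.98%. In control these shares were 6.27%, 0.0303% and 0.506%. The leading control member, ugt-22, whose level has been linked to the handling of the drug albendazole in worms, made up 11.9% of the control sum. The 5 most abundant members held 39.7% of the sum in control, 48.1% on vha-6 RNAi, 34.2% on vha-16 RNAi and 35.1% on vha-19 RNAi.

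Markers of other tissues and of the intestine differed between the groups as well. The summed level of 14 intestinal marker genes was 6898 to 7176 CPM in control, 15538 to 16357 on vha-6 RNAi, 3792 to 3856 on vha-16 RNAi and 4013 to 4025 on vha-19 RNAi. The vha-6 value rests on asp-1, an abundant aspartic protease gene, which stood at 2581 to 2803 CPM in control and 11932 to 12755 on vha-6 RNAi. Without it, in a sum added after the values were seen, the other 13 stood at 4317 to 4373 CPM in control and at 3603 to 3635 on vha-6 RNAi, so the direction turned. They stood at 2937 to 2990.2 CPM on vha-16 RNAi and 3265 to 3301 on vha-19 RNAi. Without asp-1 the intestinal sum was thus below control in all 3 knockdowns. On vha-6 RNAi that fall rests on cpr-6, which stood at a mean of 1409 CPM in control and 346 on vha-6 RNAi. Its fall was larger than that of the whole sum. The direction of the intestinal sum on vha-6 RNAi therefore depends on which single genes are counted. The list includes vha-6 itself, and none of the 14 was at 0 in any library. Single markers went both ways, with 8 called higher and 5 lower on vha-6 RNAi, 4 and 10 on vha-16 RNAi, and 4 and 9 on vha-19 RNAi. These are 57.1% and 35.7%, 28.6% and 71.4%, and 28.6% and 64.3% of the list. The shares of all genes were 47.9% and 41.4%, 48.0% and 41.9%, and 47.7% and 42.2% in the same order. Counts for the other marker lists are to be read against the same shares. Body-wall muscle markers, 12 in number, stood at 8651 to 9357 CPM in control, 11308 to 11605 on vha-6 RNAi, 5498 to 5731 on vha-16 RNAi and 5675 to 5998 on vha-19 RNAi. The muscle sum, like the ugt sum, was highest in the vha-6 libraries and below control in the other knockdowns, which overlapped, with or without its most abundant gene, unc-54. Of the muscle markers 9 were called higher and 3 lower on vha-6 RNAi, 1 and 10 on vha-16 RNAi, and 1 and 8 on vha-19 RNAi. Hypodermis markers, 12 in number, stood at 1859 to 2032 CPM in control, 2416 to 2481 on vha-6 RNAi, 1448 to 1559 on vha-16 RNAi and 1856 to 1939 on vha-19 RNAi, with 9 called higher and 3 lower in each comparison. Without their most abundant gene, the collagen gene col-19, the other 11 stood at 520.0 to 544 CPM in control and at 1198 to 1219, 1039 to 1092 and 1095 to 1214 CPM in the knockdowns in the same order. The 13 oocyte and female germline markers were all called lower in each comparison with control, from 11253 to 11503 CPM to 1320.0 to 1338 on vha-6 RNAi, 1089.6 to 1118 on vha-16 RNAi and 1136 to 1179 on vha-19 RNAi. The 12 sperm markers were all called higher in each, from 178 to 190.2 CPM to 679 to 709.5, 660.1 to 681 and 686 to 709.9. Both germline lists thus moved alike in the 3 knockdowns. The 12 neuron markers stood at 639 to 658 CPM in control, 1071 to 1087 on vha-6 RNAi, 1560.4 to 1613 on vha-16 RNAi and 1424 to 1428 on vha-19 RNAi, and 11 or all 12 of them were called higher. No marker of any list was at 0. The part of tissue make-up or stage in the ugt differences was not tested.

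On vha-6 RNAi more members rose than fell against control. Of the 61 members tested, 31 were called higher and 17 lower, and 13 were not called. The 31 are 50.8% of the members tested, against 47.9% of all genes called higher, which is near the background. The 17 are 27.9% of them, against 41.4% of all genes called lower. A change of 2-fold or more was called upward for 19 members and downward for 9, and these are 31.1% and 14.8% of members beside 32.0% and 22.7% of all genes. The median log2 fold change was 0.42 for members and 0.24 for all genes. On library totals 44 members were called higher and 13 lower, and the median of all genes was higher by 0.45. With DESeq2 size factors, as with the DESeq2 Wald test, 29 were called higher and 20 lower. The median with these size factors was 0.28 for members and 0.10 for all genes.

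The largest rise belonged to ugt-18 (WBGene00013900, chromosome V, 12820260 to 12822778, plus strand). Its level was 0.528, 0.295 and 0.596 CPM in the control libraries, from 9, 5 and 10 counts, and 281, 272 and 273 on vha-6 RNAi. It was 10.1, 10.9 and 10.3 CPM on vha-16 RNAi and 10.5, 11.3 and 11.2 on vha-19 RNAi. The vha-6 libraries stood far above all others, the control libraries held few counts, and the vha-16 and vha-19 libraries overlapped in between. The fitted log2 differences from control were 9.17, 4.45 and 4.52 in the order vha-6, vha-16, vha-19, and those of vha-6 RNAi over vha-16 and vha-19 RNAi were 4.72 and 4.65. This gene was singled out with its pattern known, so its values are a description and no test is given.

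The gene next to it, ugt-16 (WBGene00013901, chromosome V, 12825024 to 12827442, plus strand), followed. Its level rose from 7.68, 7.84 and 8.23 CPM in control to 272, 276 and 270.0 on vha-6 RNAi, a log2 fold change of 5.11 (SE 0.0549, adjusted p = 2.7e-38). On vha-16 RNAi it was 40.7, 42.9 and 41.5 CPM and on vha-19 RNAi 41.7, 47.3 and 44.9. The 4 groups fell into 3 levels, with the vha-16 and vha-19 libraries overlapping and no overlap elsewhere. Of the further large rises, ugt-19 went from 13, 14.2 and 12.8 CPM to 66.7, 67 and 69.8 (log2 2.35, adjusted p = 9.65e-28). The level of ugt-13 went from 26.4, 25.7 and 25.7 CPM to 127, 115 and 128 (log2 2.25, adjusted p = 4.68e-29). That of ugt-2 went from 16.2, 15 and 13.7 CPM to 63.6, 66.3 and 67.2 (log2 2.13, adjusted p = 3.29e-27). In each of these the 3 vha-6 libraries lay well above the 3 control libraries. A further rise of this size was that of ugt-21, from 10.2, 9.96 and 9.84 CPM to 36.9, 39.5 and 35.3 (log2 1.90, adjusted p = 1.86e-22). An exon of ugt-21 overlaps the pseudogene WBGene00007889 on the other strand.

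The deepest fall on vha-6 RNAi was that of ugt-53 (WBGene00020182, chromosome V, 2849343 to 2852028, plus strand). It stood at 22.5, 25 and 23.4 CPM in control and at 1.58, 1.83 and 1.32 on vha-6 RNAi (log2 -3.90, SE 0.111, adjusted p = 2.26e-26). The leading control member ugt-22 (WBGene00007455, chromosome IV, 13639260 to 13644567, plus strand) stood at 188, 186 and 182 CPM in control and 54.4, 55.9 and 54 on vha-6 RNAi (log2 -1.76, adjusted p = 6.49e-29). Neither gene's vha-6 libraries overlapped its control libraries. An exon of ugt-22 overlaps srz-29 on the other strand, and the strand setting of the counts is not given in the sources used here, so reads of the pair cannot be told apart. The other large falls were those of ugt-65 (log2 -2.10), ugt-41 (-1.85), ugt-9 (-1.43) and ugt-26 (-1.43), with adjusted p of 1.44e-17, 8.44e-27, 1.72e-16 and 9.13e-18. The levels of ugt-41 were 78.9, 80.8 and 71.5 CPM in control and 21.4, 21 and 21.8 on vha-6 RNAi. Those of ugt-9 were 16.1, 15.7 and 15.4 and 5.59, 6.04 and 5.83 CPM, and those of ugt-26 were 23.4, 26.1 and 21.9 and 9.21, 9.32 and 8.01 CPM. All 3 were lower in every vha-6 library than in any control library.

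**Figure D2:**
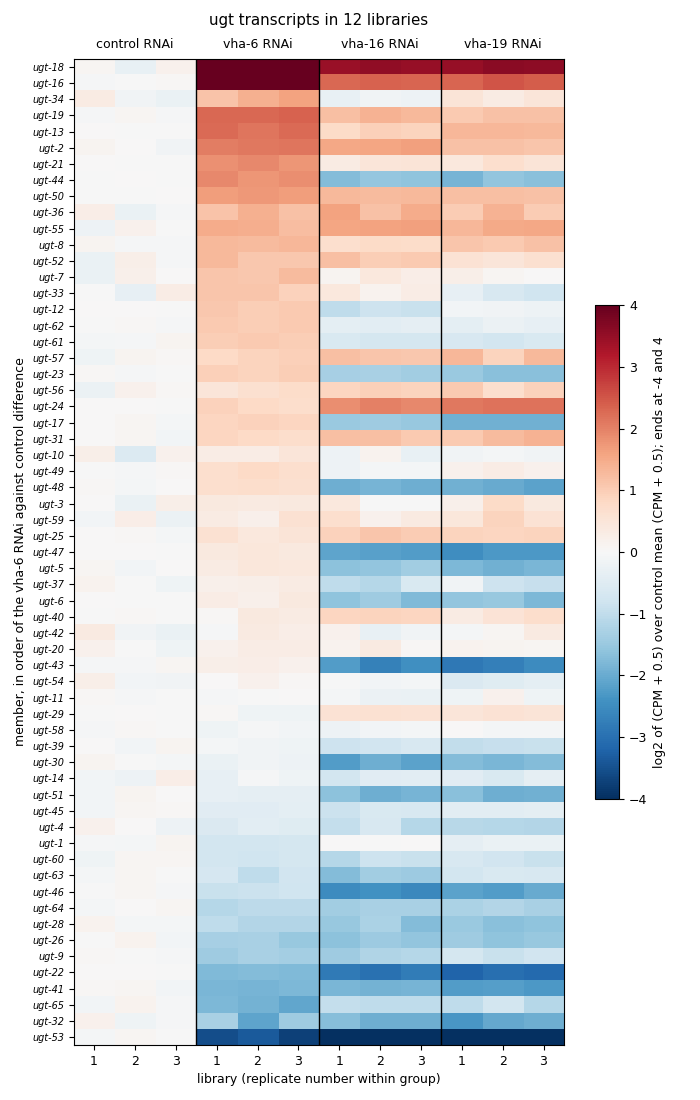
Heat map of the 61 members that passed the filter on low counts (rows, ordered by the vha-6 difference from control) in the 12 libraries (columns). Colour is log2 of (CPM + 0.5) over the control mean, red higher and blue lower, ending at -4 and 4. Libraries of a group look alike. Rows such as ugt-44, ugt-23 and ugt-17 are red in the vha-6 columns and blue in the vha-16 and vha-19 columns.

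The level on vha-6 RNAi differed from every other group, in the same direction and by 2-fold or more, for 10 of the 61 members. Such a member had to be called with that size against control, vha-16 RNAi and vha-19 RNAi. Higher on vha-6 RNAi were 9 members, ugt-18, ugt-16, ugt-44, ugt-34, ugt-21, ugt-12, ugt-62, ugt-61 and ugt-19. They are 14.8% of the members tested, beside 2.94% of all genes by the same rule. Lower was 1 member, ugt-65, which is 1.64% of the members tested, beside 0.669% of all genes. The family was chosen with the pattern of ugt-18 known, so these counts describe the members and are no test of the family. A further 14 members were called higher in all 3 comparisons, and 1, ugt-1, lower, with a change under 2-fold in at least 1 of them. The share of all genes by that looser rule was not counted, so these numbers only describe the members near the limit. Just inside the limit were ugt-19 and ugt-61, whose smallest log2 differences were 1.01 and 1.02, and just outside were ugt-23 at 0.95 and ugt-7 at 0.92.

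These members had different levels in the other groups. In ugt-44 (WBGene00008486, chromosome IV, 10469741 to 10471899, plus strand) the level was 97.9, 100.1 and 96.3 CPM in control and 376, 332 and 356 on vha-6 RNAi. It was 29.3, 33.2 and 31.9 CPM on vha-16 RNAi and 26.6, 32.9 and 30.4 on vha-19 RNAi. The gene thus rose against control on vha-6 RNAi (log2 1.86, adjusted p = 7.83e-28) and fell on vha-16 RNAi (-1.64, adjusted p = 4.87e-24) and vha-19 RNAi (-1.71, adjusted p = 1.6e-24). Between vha-6 and vha-16 RNAi it differed by 3.49 on the log2 scale (SE 0.0521, adjusted p = 3.2e-34). Its direction in these comparisons was the same on library totals and with DESeq2 size factors.

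The level of ugt-12 was 62.5, 62.7 and 60.9 CPM in control, 130.1, 125 and 129 on vha-6 RNAi, 30.1, 34.5 and 33.3 on vha-16 RNAi and 57, 56.6 and 53.5 on vha-19 RNAi. No 2 groups overlapped. Against control it rose on vha-6 RNAi (log2 1.04, adjusted p = 4.18e-22) and fell on vha-16 RNAi (-0.93, adjusted p = 6.61e-19). The vha-19 difference of -0.16 was called but turned to 0.39 on library totals. The level of ugt-62 (WBGene00010904, chromosome III, 4537281 to 4540623, minus strand), among the most abundant members in each group, was 123, 130.0 and 121 CPM in control, 259, 249 and 257 on vha-6 RNAi, 95.3, 93.9 and 97.7 on vha-16 RNAi and 94.9, 106 and 99.8 on vha-19 RNAi. Its vha-16 and vha-19 libraries overlapped and lay below the controls. It rose by 1.03 on the log2 scale on vha-6 RNAi (adjusted p = 3.9e-23). Its differences of -0.38 and -0.31 on vha-16 and vha-19 RNAi turned to 0.14 and 0.23 on library totals. Less abundant, ugt-61 stood at 11.6, 12 and 13.5 CPM in control, 24.7, 25.8 and 24.9 on vha-6 RNAi, 8.01, 7.48 and 7.35 on vha-16 RNAi and 7.84, 7.21 and 8.02 on vha-19 RNAi. It rose against control on vha-6 RNAi (1.02, adjusted p = 1.49e-15) and fell on vha-16 RNAi (-0.70) and vha-19 RNAi (-0.68), with no overlap of the 3 libraries of either group with the controls.

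Intermediate levels on vha-16 and vha-19 RNAi were found for ugt-19, ugt-21 and, as given above, ugt-18 and ugt-16. The level of ugt-19 was 31.5, 35.5 and 33.7 CPM on vha-16 RNAi and 27.8, 30.3 and 30.8 on vha-19 RNAi. That of ugt-21 was 12.7, 14.2 and 14.7 and 13.7, 16.3 and 14.5 CPM. All of these libraries lay above the controls and below the vha-6 libraries. The least abundant of the 9, ugt-34, reached 1.28, 1.7 and 2.0 CPM on vha-6 RNAi and 0.528, 0.236 and 0.179 in control. It stood at 0.161, 0.241 and 0.201 CPM on vha-16 RNAi and 0.673, 0.515 and 0.635 on vha-19 RNAi, so its differences rest on few counts.

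The 1 member that met the rule downward, ugt-65 (WBGene00008583, chromosome IV, 12420683 to 12432636, plus strand), stood at 11.1, 13.3 and 11.6 CPM in control and 3.07, 2.85 and 2.47 on vha-6 RNAi. It was 5.96, 5.63 and 5.66 CPM on vha-16 RNAi and 5.7, 6.94 and 5.16 on vha-19 RNAi. The vha-6 libraries lay below all others and the control libraries above all others. Its differences from vha-16 and vha-19 RNAi, -1.04 and -1.08, were close to the 2-fold limit. With DESeq2 size factors, with the DESeq2 Wald test, or without vha-6 replicate 3, vha-16 replicate 1 or vha-19 replicate 2, 0 members met the rule downward.

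**Figure D3:**
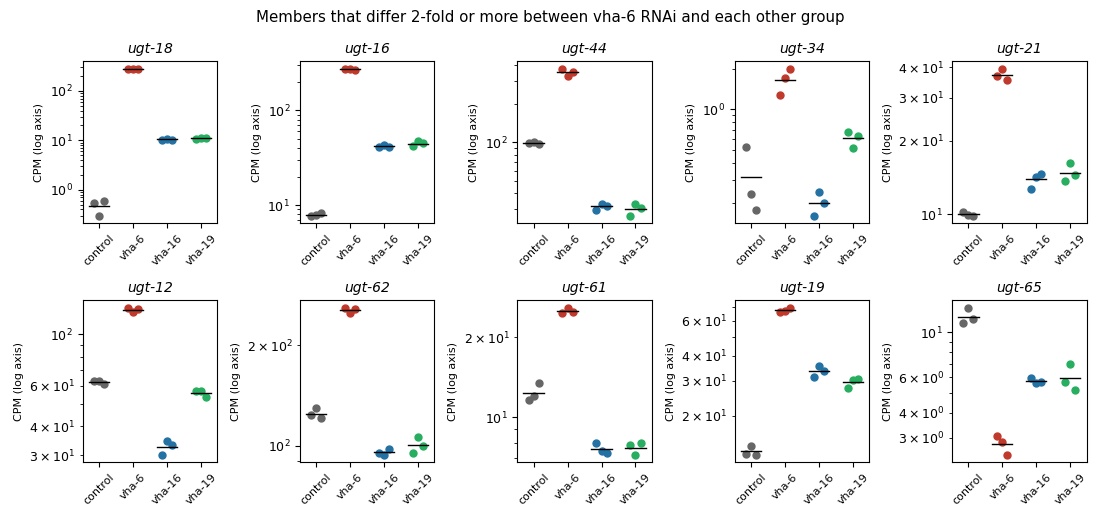
CPM of the 10 members that differed 2-fold or more between vha-6 RNAi and every other group, 1 panel each with its own log axis. Points are libraries and lines are means of 3. In 9 panels the vha-6 points lie above all others and for ugt-65 they lie lowest, while vha-16 and vha-19 points lie between control and vha-6 for ugt-18, ugt-16, ugt-21 and ugt-19 and at or below control for ugt-44, ugt-12, ugt-62 and ugt-61.

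Counted over all 61 members tested, all 3 vha-6 libraries lay above the other 9 libraries in 25 members, beside 13.7% of all genes, and below them in 2, beside 13.2%. Here too the pattern of ugt-18 was known beforehand, so the vha-6 counts are a description. The 3 control libraries lay above all others in 16 members, beside 36.4%, and below them in 17, beside 39.9%. The vha-16 libraries lay above all others in 4 members, beside 7.94%, and below in 7, beside 3.81%. Those of vha-19 RNAi lay above in 1, beside 3.17%, and below in 9, beside 2.73%.

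On vha-16 RNAi more members fell than rose against control. Of the 61 tested, 20 were called higher, beside 48.0% of all genes, 32 lower, beside 41.9%, and 9 were not called. As shares of the members these are 32.8% and 52.5%. A change of 2-fold or more was called upward for 13 members and downward for 23, beside 34.3% and 24.8% of all genes. The median log2 fold change was -0.38 for members and 0.20 for all genes. On library totals 29 were called higher and 28 lower, the members' median was 0.14, and the median of all genes was higher by 0.52 than with TMM. The split of the calls therefore depends on the scaling, while the members' median lay below that of all genes on both scales.

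Large falls on vha-16 RNAi took in members that were not called lower on vha-6 RNAi. The level of ugt-43 was 12, 11.8 and 13.1 CPM in control, 2.21, 1.45 and 1.85 on vha-16 RNAi, 1.27, 1.43 and 1.75 on vha-19 RNAi and 14.5, 14.8 and 13.8 on vha-6 RNAi. It fell on vha-16 RNAi (log2 -2.74, adjusted p = 1.11e-20), while its vha-6 difference from control was 0.23 (adjusted p = 0.0118). The level of ugt-47 was 118, 119 and 115 CPM in control, 27, 25.5 and 24.5 on vha-16 RNAi, 20.4, 23.3 and 23.6 on vha-19 RNAi and 155, 162 and 155 on vha-6 RNAi. Both genes were low in all 6 vha-16 and vha-19 libraries and above the control libraries on vha-6 RNAi. The log2 fold changes of ugt-47 were -2.20 on vha-16 RNAi (adjusted p = 4.33e-30), -2.39 on vha-19 RNAi and 0.42 on vha-6 RNAi. An exon of ugt-47 overlaps srd-49 on the other strand.

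The level of ugt-30 was 7.68, 7.02 and 6.68 CPM in control, 1.13, 1.45 and 1.25 on vha-16 RNAi and 1.78, 1.63 and 1.79 on vha-19 RNAi, against 5.89, 6.38 and 6.18 on vha-6 RNAi. It fell on vha-16 RNAi (log2 -2.48, adjusted p = 1.04e-17), and its vha-6 difference of -0.21 did not pass the test (adjusted p = 0.0537). The level of ugt-46 was 94.6, 101 and 92 CPM in control, 16.3, 17.7 and 15.6 on vha-16 RNAi, 21.4, 19.9 and 23.2 on vha-19 RNAi and 52, 52.3 and 54.8 on vha-6 RNAi. It fell in each comparison with control, with log2 fold changes of -2.54, -2.16 and -0.85 in the same order. The other deep falls were those of ugt-53, at 1.01, 0.965 and 0.964 CPM (log2 -4.59, adjusted p = 1.69e-27), and ugt-22, at 25.5, 23.1 and 26.3 CPM (log2 -2.89, adjusted p = 5.12e-34).

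The rises on vha-16 RNAi were led by ugt-18 and ugt-16, the latter with a log2 fold change of 2.40 (adjusted p = 9.43e-27). Next came ugt-24, at 4.51, 4.54 and 4.41 CPM in control, 9.0, 8.13 and 7.71 on vha-6 RNAi, 17.5, 19.7 and 18.4 on vha-16 RNAi and 20.9, 22.2 and 21.8 on vha-19 RNAi. Its libraries formed 4 steps without overlap, control lowest, then vha-6, vha-16 and vha-19. Its log2 fold change was 2.04 on vha-16 RNAi (adjusted p = 9.43e-21), 2.27 on vha-19 RNAi and 0.88 on vha-6 RNAi. The level of ugt-55 was 1.35, 1.89 and 1.61 CPM in control and 5.88, 5.91 and 6.07 on vha-16 RNAi (log2 1.88, adjusted p = 2.01e-13). An exon of ugt-55 overlaps T04H1.12 on the same strand. The remaining large rises were those of ugt-2 (1.62, adjusted p = 2.72e-23) and ugt-19 (1.33, adjusted p = 1.5e-19).

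On vha-19 RNAi, too, more members fell than rose; the comparison uses the same control libraries as that of vha-16 RNAi. Of the 61 members, 22 were called higher, beside 47.7% of all genes, 33 lower, beside 42.2%, and 6 were not called. A change of 2-fold or more was called upward for 13 and downward for 21, beside 33.6% and 24.9%. The members' median log2 fold change was -0.32 and that of all genes 0.19. On library totals the calls were 30 higher and 23 lower and the members' median was 0.21, with the median of all genes higher by 0.54. The largest fall was that of ugt-53, at 0.515, 0.277 and 0.516 CPM (log2 -5.74, adjusted p = 2.04e-28), followed by ugt-22, at 19.6, 22.5 and 20.9 CPM (-3.14, adjusted p = 9.54e-35), and ugt-43 (-3.05, adjusted p = 1.62e-21). Then came ugt-47 (-2.39), ugt-41 (-2.28), at 16.1, 16.4 and 15.2 CPM, and ugt-46 (-2.16), with adjusted p of 6.61e-31, 4.45e-29 and 1.21e-28. After ugt-18, the rises were led by ugt-16 (2.49, adjusted p = 2.13e-27), ugt-24 (2.27, adjusted p = 1.97e-22) and ugt-55, at 4.79, 5.59 and 5.72 CPM (1.73, adjusted p = 2.83e-12). Next were ugt-57, from 2.17, 2.71 and 2.56 to 6.93, 5.07 and 6.87 CPM (1.34, adjusted p = 2.23e-10), and ugt-13, at 66.1, 66.4 and 64.5 CPM (1.34, adjusted p = 6.15e-22).

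Set directly against the other knockdowns, vha-6 RNAi gave higher levels for most members. Against vha-16 RNAi, 38 of the 61 members were called higher, beside 31.2% of all genes, and 8 lower, beside 31.6%, and 15 were not called. In all 62.8% of genes were called there, and 58.4% against vha-19 RNAi. With 2-fold or more the counts were 23 higher and 2 lower, and these are 37.7% and 3.28% of the members beside 7.39% and 8.11% of all genes. The members' median log2 difference was 0.60 and that of all genes 0.01. Against vha-19 RNAi, 38 were called higher, beside 29.0% of all genes, and 9 lower, beside 29.5%, with 14 not called. With 2-fold or more 26 were higher and 2 lower, beside 6.29% and 6.99%, and the median was 0.64 beside 0.00 for all genes. Both comparisons use the same vha-6 libraries. Every member called in them kept its direction on library totals and with DESeq2 size factors.

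After ugt-18, the largest differences of vha-6 over vha-16 RNAi were those of ugt-44 (3.49), ugt-43 (2.96, adjusted p = 3.6e-22) and ugt-16 (2.71, adjusted p = 1.68e-34). Over vha-19 RNAi they were those of ugt-44 (3.57, adjusted p = 2.03e-34), ugt-43 (3.27, adjusted p = 7.56e-23) and ugt-17 (2.84, adjusted p = 4.73e-32). The level of ugt-17 was 85.8, 89.8 and 85.8 CPM on vha-6 RNAi, 16.6, 17.3 and 16.3 on vha-16 RNAi and 12.1, 12.2 and 12.2 on vha-19 RNAi, with controls at 47.7, 49.8 and 44.8. It was thus highest in the vha-6 libraries and lowest in the vha-19 libraries, with no overlap between groups. The 2 members lower by 2-fold or more on vha-6 RNAi, in either comparison, were ugt-24 (-1.16 and -1.39) and ugt-65. Smaller differences downward were those of ugt-1 from vha-16 RNAi (-0.75, adjusted p = 3.61e-14), of ugt-9 from vha-19 RNAi (-0.62, adjusted p = 6.23e-07) and of ugt-29 from each (-0.69 and -0.62, adjusted p = 2.68e-14 and 6.17e-13). The level of ugt-29 was 28.8, 29.7 and 28.8 CPM in control, 29.9, 25.9 and 26.1 on vha-6 RNAi, 43.8, 44.4 and 43.8 on vha-16 RNAi and 40.9, 43.2 and 41.5 on vha-19 RNAi. Its control and vha-6 libraries lay close together, below those of the other knockdowns.

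**Figure D4:**
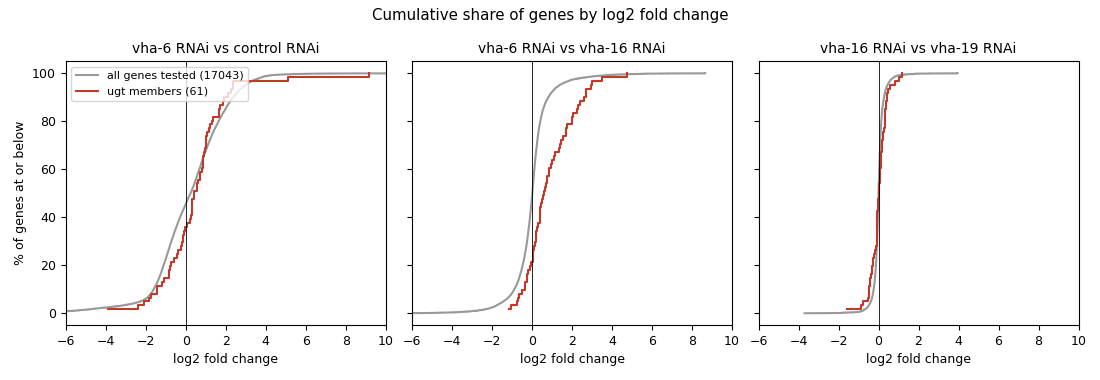
Cumulative share of genes (percent, vertical axis) by log2 fold change (horizontal axis, cropped at -6 and 10) for the 61 tested ugt members in red and all 17043 tested genes in grey, in 3 comparisons. The red curve lies to the right of the grey one for vha-6 against vha-16 RNAi, with medians of 0.60 and 0.01, and the curves lie close together around 0 for vha-16 against vha-19 RNAi.

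Differences between vha-16 and vha-19 RNAi were fewer and smaller. Of the 61 members, 15 were higher on vha-16 RNAi, beside 9.81% of all genes, 10 were lower, beside 7.56%, and 36 were not called, with 17.4% of all genes called either way. With 2-fold or more, 2 were higher, beside 0.417% of all genes, and 1 was lower, beside 0.106%. The higher ones were ugt-53 (1.16, adjusted p = 0.00282) and ugt-33 (1.02, adjusted p = 1.71e-05), and the lower one was ugt-34 (-1.57, adjusted p = 0.00471). The first and last of these were under 2 CPM in both groups and ugt-33 was under 4. Among more abundant members the differences were largest for ugt-63, at 16.1, 20.5 and 19.7 CPM on vha-16 RNAi and 32.7, 35.4 and 34.6 on vha-19 RNAi (-0.87, adjusted p = 2.86e-11), and for ugt-12 (-0.77, adjusted p = 7.93e-15). Both were lower in every vha-16 library than in any vha-19 library. The next were ugt-9 (-0.50) and ugt-13 (-0.46) among the lower, with adjusted p of 0.000106 and 2.23e-09. Higher on vha-16 RNAi were ugt-52 (0.55), ugt-17 (0.46), ugt-2 (0.44) and ugt-54 (0.44), with adjusted p of 0.000396, 1.06e-06, 7.74e-09 and 0.000675.

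Levels of different members were compared per kilobase of coding length. In control the highest was ugt-22, at 116 ± 1.71 CPM per kb, and the median member stood at 6.84. On vha-6 RNAi the highest was ugt-44, at 218 ± 13.4, with a median of 8.01. On vha-16 and vha-19 RNAi it was ugt-62, at 60 ± 1.22 and 63 ± 3.54, with medians of 4.79 and 4.66. By this measure ugt-18 ranked 59 of 63 in control, 2 on vha-6 RNAi, 26 on vha-16 RNAi and 27 on vha-19 RNAi. Relative to control, the median level thus differed less than the highest level. Different genes hold these positions in different groups, so neither value measures the change of any single member. Members with a mean of at least 5 CPM numbered 42 in control, 45 on vha-6 RNAi, 43 on vha-16 RNAi and 38 on vha-19 RNAi.

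The patterns most like that of ugt-18 over the 12 libraries, by Pearson's r of log2 (CPM + 0.5), were those of ugt-16 (r = 0.998), ugt-19 (0.984), ugt-13 (0.976) and ugt-21 (0.969). The libraries form 4 tight groups, so these values rest on 4 group levels and describe likeness only. All 4 had their highest mean on vha-6 RNAi and their lowest in control.

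Neighbours on a chromosome moved together in some places and apart in others. Runs were defined as members with at most 1 other protein-coding gene between them, which gave 11 runs holding 33 members. The run that begins with ugt-18 holds ugt-16 and then ugt-15 (WBGene00008097, chromosome V, 12827519 to 12830114, plus strand), and reaches its end within 10 kb of its start. The third gene, ugt-15, did not share the rise in size: it stood at 0.334 ± 0.179 CPM in control and 0.582 ± 0.178 on vha-6 RNAi (SD, n = 3) and was removed by the filter on low counts. The run of 7 members on chromosome V, ugt-12, ugt-11, ugt-9, ugt-10, ugt-8, ugt-14 and ugt-13, spans 4887165 to 4911399. On vha-6 RNAi 3 of these were called higher and 1 lower, with log2 fold changes from -1.43 in ugt-9 to 2.25 in ugt-13.

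Other runs differed within themselves. In the run ugt-39, ugt-41 and ugt-36 on chromosome V, ugt-41 fell on vha-6 RNAi (-1.85) while ugt-36, a member of low level, rose (1.68). The neighbours ugt-1 and ugt-2 went apart as well: ugt-1 fell from 31.2, 30.6 and 34.5 CPM to 19.2, 19.1 and 19.4 (-0.74, adjusted p = 7.79e-14) and ugt-2 rose (2.13). The pair ugt-43 and ugt-44 on chromosome IV rose on vha-6 RNAi and fell in the other knockdowns, with vha-6 log2 fold changes of 0.23 and 1.86. The pair ugt-47 and ugt-17 did likewise, with vha-6 log2 fold changes of 0.42 and 0.88. The run of ugt-26, ugt-27, ugt-28 and ugt-25 on chromosome I had falls in ugt-26 (-1.43) and ugt-28 (-1.18) and a rise in ugt-25 (0.54) on vha-6 RNAi.

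**Figure D5:**
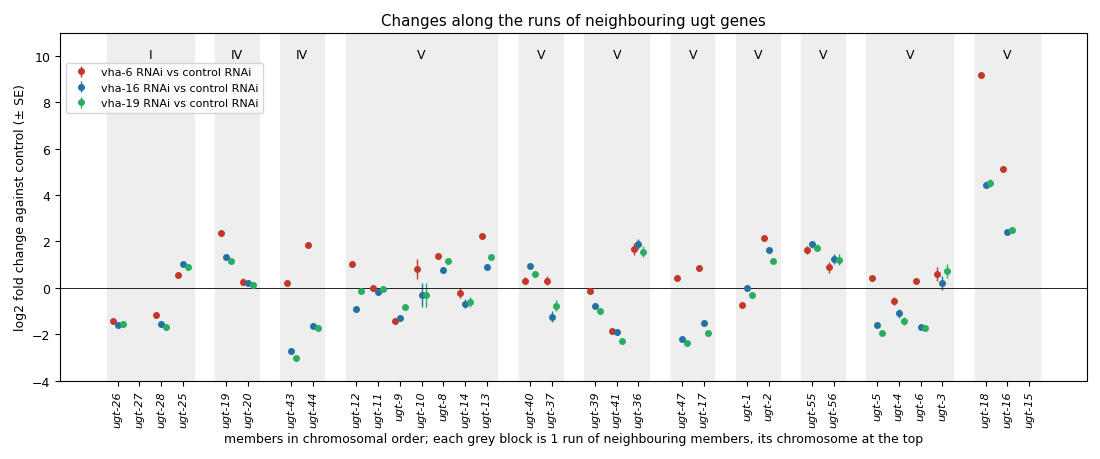
Log2 fold change against control with its SE for the members of the 11 runs of neighbouring ugt genes, in chromosomal order; grey blocks mark the runs, with the chromosome named at the top, and colours mark the 3 knockdowns. Members removed by the filter have no point. The run with ugt-18 and ugt-16 stands highest, while the runs with ugt-41 and ugt-36 and with ugt-1 and ugt-2 hold rises and falls side by side.

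Further members, chosen here after their values were seen, complete the range. The level of ugt-50 was 36.9, 36.7 and 37.9 CPM in control, 119.9, 126 and 119 on vha-6 RNAi, 92, 90.3 and 92.8 on vha-16 RNAi and 85.8, 87.1 and 84.8 on vha-19 RNAi, with log2 fold changes of 1.71, 1.30 and 1.21 (adjusted p = 1.88e-28, 6.6e-25 and 6.97e-24). An exon of it overlaps nhr-26 on the other strand. Every vha library lay above the controls, the vha-6 libraries highest. The level of ugt-23 was 54.8, 52.1 and 53.1 CPM in control, 104, 100.02 and 105 on vha-6 RNAi, 20.9, 21.6 and 20 on vha-16 RNAi and 18.6, 16.4 and 16.4 on vha-19 RNAi, with log2 fold changes of 0.95, -1.35 and -1.64. That of ugt-48, which overlaps cft-1 on the other strand, was 29.3, 26.4 and 28.3 CPM in control, 45.3, 45.8 and 44.2 on vha-6 RNAi, 6.8, 7.4 and 6.83 on vha-16 RNAi and 7.09, 6.54 and 5.96 on vha-19 RNAi, with log2 fold changes of 0.69, -2.0 and -2.10. Both stood above the controls on vha-6 RNAi and below them in the other knockdowns, without overlap. The level of ugt-64, which overlaps C07G3.10 on the other strand, was 54.2, 57.3 and 59.7 CPM in control, 25.4, 27.4 and 27.6 on vha-6 RNAi, 21.6, 23.1 and 23 on vha-16 RNAi and 23.4, 25.1 and 23.1 on vha-19 RNAi, and fell in each knockdown (log2 -1.09, -1.34 and -1.26). A member with small differences, ugt-58, stood at 59.1, 62.9 and 60.7 CPM in control, 53.9, 58.5 and 56.4 on vha-6 RNAi, 52.8, 55.9 and 57.5 on vha-16 RNAi and 60.9, 57.1 and 58 on vha-19 RNAi.

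In the model used here some members showed no called difference from control in any knockdown, but this depends on the processing. On library totals ugt-11 and ugt-20 were called higher in each knockdown, ugt-42 on vha-6 and vha-19 RNAi, and ugt-10 on vha-6 RNAi. Without a filter, or with only the 2 groups compared in the fit, ugt-20 was also called higher on vha-6 RNAi. With DESeq2 size factors, and by the DESeq2 Wald test, ugt-11 was called lower on vha-16 RNAi (log2 -0.39 in both). The level of ugt-11 was 6.5 ± 0.28 CPM in control, 6.39 ± 0.122 on vha-6 RNAi, 5.67 ± 0.432 on vha-16 RNAi and 6.28 ± 0.984 on vha-19 RNAi (SD, n = 3). That of ugt-20 was 3.62 ± 0.506, 4.37 ± 0.241, 4.2 ± 0.565 and 3.96 ± 0.0735 CPM in the same order. The others, ugt-42 and ugt-10, had means between 0.25 and 1.28 CPM, where a difference of moderate size may go undetected. Besides ugt-15, ugt-27 was removed by the filter, with 0.296 ± 0.18 CPM in control and 0.355 ± 0.0488 on vha-6 RNAi. For members with at least 5 CPM the coefficient of variation within a group had a median of 4.91%, and for those below it 16.3%.

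Genes that act around the ugt enzymes were examined from lists. A list for UDP-glucuronate supply and for sugar-nucleotide transport in general held 6 genes, sqv-4, sqv-7, sqv-1, K08E3.5, srf-3 and nstp-4. In each comparison with control srf-3 and nstp-4 were called higher and the other 4 lower, beside 47.7 to 48.0% and 41.4 to 42.2% of all genes. Not every gene listed makes or carries UDP-glucuronate, so neither the counts nor the sum measure its supply. The summed level of the 6 genes was 1236 to 1261 CPM in control, 485 to 503 on vha-6 RNAi, 432 to 449 on vha-16 RNAi and 439 to 448 on vha-19 RNAi. All vha libraries lay below the controls, and the summed ugt level of the vha-6 libraries went the other way. The UDP-glucose dehydrogenase gene sqv-4, whose enzyme makes UDP-glucuronate, stood at 207 ± 1.49 CPM in control and 43.7 ± 0.412 on vha-6 RNAi (log2 -2.24, adjusted p = 8.65e-33). Its log2 fold changes on vha-16 and vha-19 RNAi were -1.98 and -1.96. The list's median log2 fold changes were -1.52, -1.74 and -1.70 in the order vha-6, vha-16, vha-19, beside 0.24, 0.20 and 0.19 for all genes.

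Of 71 cytochrome P450 genes tested, 40 were called higher and 24 lower on vha-6 RNAi, which is 56.3% and 33.8% beside 47.9% and 41.4% of all genes. The counts were 31 and 28 on vha-16 RNAi, and 29 and 29 on vha-19 RNAi, shares of 39.4 to 43.7% that lie near or below those of all genes. Between vha-6 and vha-16 RNAi 35 were higher and 18 lower, 49.3% and 25.4% beside 31.2% and 31.6% of all genes. Of 47 glutathione transferase genes tested, the counts were 22 and 14, 17 and 19, and 17 and 18 against control, and 15 and 16 between vha-6 and vha-16 RNAi, 31.9% and 34.0% beside 31.2% and 31.6%. Against control their shares called higher were 46.8%, 36.2% and 36.2%, beside 47.9%, 48.0% and 47.7%, and those called lower 29.8%, 40.4% and 38.3%, beside 41.4%, 41.9% and 42.2%. Of 23 genes for P-glycoprotein and MRP efflux pumps, 10 were higher and 6 lower, 11 and 7, and 10 and 9 against control. Thus 43.5%, 47.8% and 43.5% were higher, near the shares of all genes, and 26.1%, 30.4% and 39.1% lower. Between vha-6 and vha-16 RNAi 13 pump genes were higher and 5 lower, 56.5% and 21.7% beside 31.2% and 31.6% of all genes. The median log2 difference between vha-6 and vha-16 RNAi was 0.34 for the P450 genes, 0.07 for the glutathione transferases, 0.18 for the pumps and 0.60 for the ugt members, and 0.01 for all genes. Differences between these lists were not tested.

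Of 14 regulators of the response to foreign compounds and stress, 6 were called higher and 8 lower on vha-6 RNAi, 6 and 5 on vha-16 RNAi, and 6 and 8 on vha-19 RNAi. The share called higher, 42.9% in each, is near the 47.7 to 48.0% of all genes. The share called lower was 57.1%, 35.7% and 57.1% in the order vha-6, vha-16, vha-19, beside 41.4%, 41.9% and 42.2% of all genes. The gene for the stress and dauer regulator PQM-1, pqm-1, rose by 2.47, 3.29 and 3.53 on the log2 scale in the order vha-6, vha-16, vha-19 (adjusted p = 3.62e-32, 2.61e-36 and 2.97e-37). The nuclear receptor gene nhr-8, needed for resistance to toxins in worms, rose by 1.39, 0.81 and 0.70 (adjusted p = 3.18e-24, 5.67e-17 and 3.4e-15). The gene for the intestinal GATA factor ELT-2, elt-2, rose by 1.18, 1.43 and 1.48 (adjusted p = 1.61e-20, 2.12e-23 and 7.74e-24). The latter is also 1 of the intestinal markers above, so it rose on vha-16 and vha-19 RNAi while the summed marker level was lower there.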

How the data were processed

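The deposited values are raw counts, whole numbers per gene and library without normalization, as judged from the table itself. The submitters' processing notes name the WBcel235/ce11 genome, STAR 2.73a and edgeR 3.24.3. How reads were counted, with which strand setting, and what filter was applied was not given in the sources used here. Its 3 entries of unassigned reads, 9.92 to 16.9% of a library's reads in the table, were kept apart.

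Counts were analysed with edgeR 4.0.16 in R 4.3.3: filterByExpr kept 17043 genes and dropped 1424, TMM set the scale (factors 0.763 to 0.775 in control and 1.05 to 1.12 elsewhere), and a model with 1 mean per group was fitted to all 12 libraries. Quasi-likelihood F-tests of 6 contrasts received Benjamini-Hochberg adjustment across all genes. Fold changes against low control counts depend on edgeR's prior count. Positions and coding lengths came from Ensembl 115, and figures from matplotlib 3.10.9 in Python 3.11.15.

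Members, gene lists and tests were chosen with earlier results of these data known. Named were ugt-18; per contrast with control, the 6 largest rises and falls among called members without overlap and with at least 5 CPM in 1 group, and 4 each way between knockdowns; every member meeting the 2-fold vha-6 rule; the 3 most abundant; up to 4 not called; the 4 most like ugt-18; and up to 3 genes per list by p. Others (ugt-7, ugt-23, ugt-48, ugt-50, ugt-58, ugt-64, ugt-25, ugt-28, ugt-33, ugt-36 and the genes filtered out) were named after their values were seen.

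Replicates differed by more than counting noise (chi-square per degree of freedom 1.52 to 2.92). Replicate numbers were checked as pairs: correlations of same-numbered deviations were -0.04 to 0.05, so the numbers were not used as pairs. The method was tested on simulated counts for vha-6 against control (15456 genes). Out of 50 genes each, it recovered 20 that were changed 1.2-fold, 39 changed 1.5-fold, 47 changed 2-fold and 49 changed 4-fold. Of its 165 calls 10 were false. In the simulation only the planted genes changed and all libraries shared the control profile, whereas 89.4% of genes were called in the data. It therefore cannot give the error rate of the calls against control. Alternatives were DESeq2 size factors, library totals, other filters, a replicate block, a 2-group fit, the DESeq2 1.42.0 Wald test, other fold thresholds and leaving out each library.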

Additional observations from a re-analysis of the deposited data

How the results depend on the processing

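Depth was similar in all libraries and limits mainly members under 5 CPM. Scaling is the main limit: most genes were called against control, and directions of small differences depend on the scale. Of the members called lower, 3 of 17 on vha-6 RNAi, 3 of 32 on vha-16 RNAi and 5 of 33 on vha-19 RNAi changed direction on library totals, while every member called higher kept it. The replicate block gave 32 and 17 members higher and lower on vha-6 RNAi, 21 and 32 on vha-16 RNAi, 22 and 33 on vha-19 RNAi, 38 and 8, 38 and 9, and 15 and 10 in the comparisons between knockdowns, so it changed no count by over 1.5 times. Requiring 2-fold or more gave 19 higher and 9 lower members on vha-6 RNAi, 13 higher on vha-16 RNAi, 13 and 21 on vha-19 RNAi, 23 and 2 for vha-6 over vha-16 RNAi, 2 lower for vha-6 against vha-19 RNAi, and 2 and 1 for vha-16 against vha-19 RNAi, since fewer members pass it. Requiring 4-fold left 2 members higher on vha-6 RNAi than in each other group and 0 lower, and DESeq2 size factors and the DESeq2 Wald test also gave 0 lower. Leaving out 1 library gave 32 to 35 higher and 16 to 18 lower on vha-6 RNAi. The first of these ranges lies wholly above the 31 called higher with all 12 libraries. Filter, scaling and estimate of spread were redone in each such fit, so the genes tested and the scale can differ. The ranges were 18 to 21 and 30 to 32 on vha-16 RNAi, and 20 to 22 and 32 to 33 on vha-19 RNAi. They were 36 to 39 and 7 to 8 for vha-6 against vha-16 RNAi, 36 to 39 and 7 to 9 against vha-19 RNAi, and 11 to 15 and 10 to 12 for vha-16 against vha-19 RNAi. The 2-fold vha-6 rule then gave 8 to 10 higher and 0 to 1 lower. The summed ugt level with DESeq2 size factors was 1706 CPM in control, 2712 on vha-6 RNAi, 973 on vha-16 RNAi and 1011 on vha-19 RNAi. On library totals it was 1204 in control, 2868 on vha-6 RNAi, 1124 on vha-16 RNAi and 1172 on vha-19 RNAi.

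Among 95 log2 fold changes of named members, 620 of 647 alternative values kept direction and call, as did 1117 of 1140 with 1 library left out. Among these 95, directions changed for ugt-62 on library totals (0.14 on vha-16 and 0.23 on vha-19 RNAi) and otherwise for members not called in the model used here. The called vha-19 difference of ugt-12 from control, which also turned on library totals, is not 1 of the 95. On library totals ugt-10 stood at 0.21 on vha-16 and 0.21 on vha-19 RNAi, ugt-11 at 0.42, 0.32 and 0.49 in the order vha-6, vha-16, vha-19, and ugt-42 at 0.40 on vha-16 RNAi. With a filter at 5 CPM ugt-11 stood at 0.19, 0.0061 and 0.15 in that order. Its vha-6 value was 0.0057 with no filter and 0.045 in the 2-group fit. With DESeq2 size factors and the Wald test, the vha-19 values of ugt-20 were -0.043 and -0.044 and those of ugt-42 -0.00013 and -0.00022. Leaving out 1 library moved ugt-10 from -0.79 to 0.097 on vha-16 and from -0.81 to 0.077 on vha-19 RNAi, ugt-11 from -0.056 to 0.013 on vha-6 and from -0.17 to 0.042 on vha-19 RNAi, and ugt-42 from -0.34 to 0.21 on vha-16 and from -0.0024 to 0.50 on vha-19 RNAi. The cause of these changes was not tested.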
